A study of Mus musculus with 6 samples.

Results

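The class I phosphoinositide 3-kinase genes are described here: the 4 catalytic subunit genes Pik3ca, Pik3cb, Pik3cd and Pik3cg, the 5 regulatory subunit genes Pik3r1, Pik3r2, Pik3r3, Pik3r5 and Pik3r6, and the adaptor gene Pik3ap1. They are the rows of the deposited table that carry these symbols, 10 of 54231 genes with a value in each of 6 libraries, and all 10 passed the filter on low values. The libraries came from mouse cultures that the labels call female germline stem cells, which are dividing germ cells isolated from the ovary. At 8 h RNA was taken from 3 samples treated with C89, a compound that the labels give by code name alone, and from 3 controls whose titles name DMSO, a common solvent. The labels name no strain, age, dose or genotype. Nothing in them tells whether replicates came from separate cultures, so each p-value reflects the spread among these 6 libraries and that spread may be technical. The study's title is about C89, autophagy and PI3K-AKT signalling, and class I PI3K is the enzyme at the head of that pathway. The pathway is controlled largely by phosphorylation and lipid turnover, which RNA levels do not measure.

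Class I PI3Ks phosphorylate the membrane lipid PIP2 to PIP3, which recruits AKT and other proteins with lipid-binding domains. Class IA enzymes pair a catalytic subunit encoded by Pik3ca, Pik3cb or Pik3cd with a regulatory subunit encoded by Pik3r1, Pik3r2 or Pik3r3, which stabilizes it, holds it inactive and docks it on phosphorylated tyrosines of receptors and adaptors. The class IB enzyme pairs the Pik3cg product with the Pik3r5 or Pik3r6 product and answers mainly to G protein-coupled receptors. Pik3cd and Pik3cg are known as the isoforms of blood cells, while Pik3ca and Pik3cb are expressed broadly.

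Reads assigned to genes numbered 7772060 to 17938295 per C89 library and 17826569 to 21763459 per DMSO library, and values below are normalized counts, that is reads divided by the authors' size factor of the library. C89 libraries 2 and 3 were nearly alike: 0.686% of genes differed between them beyond sampling noise, where the other within-group pairs differed in 25.8 to 48.7%. They were kept as 2 libraries, as labelled. Their counts differed by 1.61 in chi-square per degree of freedom, where the other within-group pairs differed by 9.08 to 26.7. That value cannot tell whether these 2 libraries came from separate cultures. If they are not independent, the p-values are too low. Germ cell identity was not borne out by the markers, since 6 of 20 listed genes, among them Dazl, Dppa3 and Figla, had no read in any library and Ddx4 averaged 2.74 normalized counts in C89 and 1.69 in DMSO libraries. The germ cell list summed to 3649 to 4290 normalized counts in C89 and 2445 to 3365 in DMSO libraries, with 2 genes, Etv5 and Piwil2, averaging at least 50. Markers of blood cells were abundant in every library. The 5 listed genes of all blood cells, such as Ptprc and Spi1, summed to 28352 to 28940 normalized counts in C89 and 24201 to 25888 in DMSO libraries, and the mast cell list summed to 94272 to 105199 in C89 and 56088 to 67850 in DMSO libraries, although its defining receptor genes Fcer1a and Ms4a2 were at or near 0. Lymphocyte markers summed to 10.6 to 19.1 in C89 and 12.7 to 273 in DMSO libraries, and stromal markers to 57.6 to 135 in C89 and 138 to 2416 in DMSO libraries, with the second DMSO library highest in both lists. Fewer cells of a type and less RNA per cell cannot be told apart in such bulk samples.

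Of the 10 class I PI3K genes, 2 rose and 4 fell in C89 libraries at an adjusted p under 0.05 (limma across 18954 tested genes, Benjamini-Hochberg adjustment), where 26.1% of all tested genes passed, 12.5% upward and 13.6% downward. Pik3cd, the catalytic gene of blood cells, and Pik3ap1, the adaptor, rose. Pik3cb, Pik3r3 and both class IB regulatory genes, Pik3r5 and Pik3r6, fell. The other 4 members, Pik3ca, Pik3cg, Pik3r1 and Pik3r2, had log2 fold changes of -0.17 to -0.11 and did not pass. The median log2 fold change (C89 over DMSO, of the normalized count plus 1) was -0.16 over the 10 members and -0.03 over all tested genes. Values of the 2 groups did not overlap in the 6 called members, 2 higher and 4 lower in C89, against 40.9% of all tested genes, 19.9% higher and 21% lower. In the fit that dropped the second DMSO library, Pik3cd was the 1 higher member and Pik3r3, Pik3r5 and Pik3r6 were the 3 lower ones. That fit called 2303 of the 18954 tested genes, against 4946 with all libraries.

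**Figure D1:**
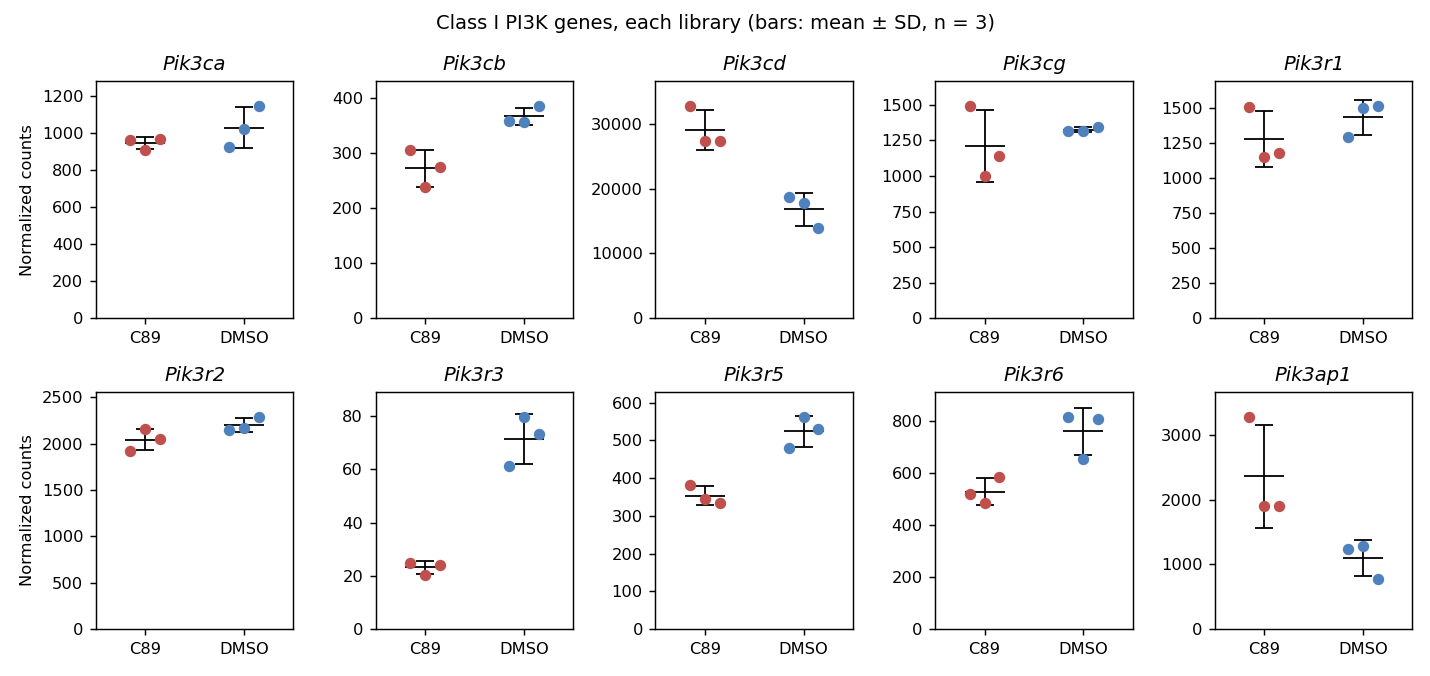
Normalized counts (y axis, from 0) of each of the 10 genes in the 3 C89 libraries and the 3 DMSO libraries, points in replicate order with the mean and SD. Pik3cd and Pik3ap1 stand higher in all 3 C89 libraries, Pik3cb, Pik3r3, Pik3r5 and Pik3r6 stand lower, and the groups overlap in the other 4 genes.

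Among the catalytic genes, Pik3cd stood far above the rest and was the only one of the 4 that rose in the fit with all libraries. It lies on mouse chromosome 4 (GRCm38, GENCODE M21: chr4:149649168-149702571, minus strand; ENSMUSG00000039936). Its normalized counts were 32653, 27291 and 27273 in C89 libraries, against 18645, 17780 and 13945 in DMSO libraries. The lowest C89 library exceeded the highest DMSO library by far, and within each group the first library was the highest. The means of 29072 ± 3101 and 16790 ± 2502 (SD, n = 3 each) give a ratio of 1.73 and a log2 fold change of 0.80 (SE 0.12, limma adjusted p = 6.81e-04). It stayed called under each of 15 other settings, at log2 fold changes of 0.65 to 0.88. Without the second DMSO library, which held the most lymphocyte and stromal RNA, the log2 fold change was 0.85. The sums of the mast cell, macrophage, germ cell and all blood cell marker lists were also higher in each C89 library than in any DMSO library. Members of these lists did not all move alike. In the all blood cell list Laptm5, Cd53 and Spi1 averaged higher in C89 libraries. Coro1a averaged 6265 in C89 and 7375 in DMSO libraries, and Ptprc 5171 and 5423. The germ cell sum came mostly from Etv5, at 3664 in C89 and 2595 in DMSO libraries, while Piwil2 averaged 143 and 164. The mast cell sum came mostly from Kit, Gata2 and Cpa3, while Mitf averaged 1096 in C89 and 1234 in DMSO libraries. The macrophage list was at 4336 to 4701 normalized counts in C89 and 2044 to 3045 in DMSO libraries. Its sum came almost wholly from Adgre1, Cd68 and Fcgr1, and its defining genes Csf1r, Itgam and Cd14 were at or near 0. The part of any of these cell types in the higher Pik3cd and Pik3ap1 levels was not tested.

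Pik3cd has 3 start sites with a RefSeq promoter window (GRCm38.p6, 250 bases before to 50 after the start). Its GENCODE M21 gene reaches further upstream than these, to chr4:149702571, where there is no window. The single RefSeq start of Pik3ap1, the other gene that rose, has a window too. These windows are shown because they belong to the members that moved upward together. The deposited values do not say which start was used. Capitals mark matches to 5 motifs searched on both strands: CACGTG, the E-box core bound by MITF, TFE3 and TFEB; AGATAA for GATA factors; GAGGAAGT for PU.1; GTAAACA for FOXO factors; and TGACGTCA for CREB and ATF factors. The motifs overlap nowhere in these windows.
Pik3cd, upstream start, chr4:149698659-149698958, minus strand: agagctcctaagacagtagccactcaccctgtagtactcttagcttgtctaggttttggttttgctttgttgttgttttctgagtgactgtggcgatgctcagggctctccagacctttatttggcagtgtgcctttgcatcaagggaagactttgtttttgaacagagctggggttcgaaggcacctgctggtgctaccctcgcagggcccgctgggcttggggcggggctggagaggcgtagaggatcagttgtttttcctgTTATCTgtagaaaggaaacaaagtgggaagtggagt
Pik3cd, middle start, chr4:149676040-149676339, minus strand: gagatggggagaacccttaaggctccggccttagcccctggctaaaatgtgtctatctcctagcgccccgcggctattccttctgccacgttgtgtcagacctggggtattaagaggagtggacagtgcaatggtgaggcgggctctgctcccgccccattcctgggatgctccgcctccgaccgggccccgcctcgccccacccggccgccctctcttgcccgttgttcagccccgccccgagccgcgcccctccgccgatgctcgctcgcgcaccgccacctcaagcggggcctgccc
Pik3cd, downstream start, chr4:149663267-149663566, minus strand: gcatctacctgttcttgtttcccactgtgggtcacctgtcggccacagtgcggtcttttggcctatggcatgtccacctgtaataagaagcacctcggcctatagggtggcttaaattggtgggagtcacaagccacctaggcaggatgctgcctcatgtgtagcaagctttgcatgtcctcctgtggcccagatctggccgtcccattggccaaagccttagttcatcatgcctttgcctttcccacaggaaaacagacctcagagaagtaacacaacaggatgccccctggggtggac
Pik3ap1, chr19:41385053-41385352, minus strand: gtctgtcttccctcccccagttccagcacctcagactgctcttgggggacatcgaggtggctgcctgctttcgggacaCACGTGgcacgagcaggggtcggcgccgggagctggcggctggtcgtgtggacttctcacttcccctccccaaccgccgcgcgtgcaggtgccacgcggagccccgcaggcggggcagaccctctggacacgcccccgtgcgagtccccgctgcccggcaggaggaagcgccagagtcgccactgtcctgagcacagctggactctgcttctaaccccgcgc

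The upstream Pik3cd window held the GATA motif on the opposite strand, beginning 14 bases after the start, and 11.2% of all 32851 windows in the table held that motif on either strand. The middle window was rich in CpG, with 26 such dinucleotides and 68% G and C, while the upstream and the downstream window had 6 and 4. The Pik3ap1 window had 26 CpG dinucleotides and the E-box core CACGTG, beginning 172 bases before the start, which 7.15% of all windows held. Windows were found for 9 of the 10 members, 15 windows in all. Of the other members, Pik3cg alone had a match: 2 overlapping windows of its neighbouring starts held GAGGAAGT, present in 3.2% of all windows, and 1 of them held GTAAACA, present in 3.65%. No member window held TGACGTCA, which occurred in 1.79% of all windows. These matches describe letters in a window and are not measured binding sites.

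Pik3cb (chr9:99036654-99140621), whose product is a broadly expressed class IA catalytic subunit that also responds to G proteins, was the lowest of the 4 and fell. Its normalized counts were 305, 238 and 275 in C89 libraries, against 358, 356 and 385 in DMSO libraries. All C89 values were below all DMSO values, with a ratio of means of 0.744 and a log2 fold change of -0.43 (SE 0.12, limma adjusted p = 0.0216). The call was lost without the second C89 library (adjusted p = 0.1), the third C89 library (0.0772), the second DMSO library (0.0862) or the third DMSO library (0.0735), and with the 2 nearly alike C89 libraries summed (0.0784).

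Pik3ca (chr3:32397671-32468486), the broadly expressed isoform often mutated in cancers, had 965, 910 and 966 normalized counts in C89 libraries, against 924, 1021 and 1143 in DMSO libraries. Its groups overlapped, and its log2 fold change of -0.12 (SE 0.10) did not pass (limma adjusted p = 0.427). Pik3cg (chr12:32173473-32208659), the class IB catalytic gene, had 1489, 1000 and 1138 normalized counts in C89 libraries, against 1313, 1314 and 1345 in DMSO libraries. The first C89 library was above every DMSO library and the other two were below them. Its log2 fold change was -0.15 (SE 0.12, adjusted p = 0.411), and without the first C89 library it was -0.31 and passed (adjusted p = 0.0402).

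Levels of different genes were compared as normalized counts per kilobase of exon, using the merged exon length of each gene in GENCODE M21. On this scale Pik3cd was at 4645 ± 495 in C89 and 2683 ± 399.7 in DMSO libraries (SD, n = 3 each), and by its mean over all 6 libraries it ranked 188th of 18934 tested genes with a length, within the top 0.993%. Pik3cg followed at 143 ± 29.9 in C89 and 157 ± 2.13 in DMSO libraries. Pik3ca was at 104 ± 3.48 in C89 and 113 ± 12.1 in DMSO libraries, and Pik3cb at 37.9 ± 4.66 in C89 and 50.9 ± 2.20 in DMSO libraries. The order Pik3cd, Pik3cg, Pik3ca, Pik3cb held in each of the 6 libraries, and neighbours in it did not overlap within either group.

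Pik3cd therefore made up most of the catalytic subunit level, and its share was higher with C89. The share of Pik3cd among the 4 catalytic genes was 94.1, 94.5 and 94.0% in C89 libraries, against 90.7, 89.9 and 86.8% in DMSO libraries. All C89 libraries were above all DMSO libraries, and the mean share was 94.2 ± 0.292% in C89 and 89.1 ± 2.05% in DMSO libraries, a difference of 5.08 percentage points. Pik3cg had a mean share of 2.89 ± 0.308% in C89 and 5.30 ± 0.801% in DMSO libraries, Pik3ca one of 2.13 ± 0.192% in C89 and 3.85 ± 0.939% in DMSO libraries, and Pik3cb one of 0.769 ± 0.0543% in C89 and 1.72 ± 0.314% in DMSO libraries. The shares of these 3 genes were lower in each C89 library than in any DMSO library. All 4 shares are parts of the same sum, so a higher Pik3cd share lowers the other 3 together by arithmetic. Their differences are therefore not separate results, and the Pik3ca and Pik3cg levels themselves did not pass the test. Each of the 4 differences had a two-sided exact permutation p of 0.1, which is the smallest that 3 against 3 libraries allow, and 0.122 after adjustment over the 11 shares and ratios tested. The summed level of all 4 genes was 4930 ± 530 per kilobase in C89 and 3004 ± 384 in DMSO libraries, while the sum without Pik3cd was 286 ± 37.0 in C89 and 321 ± 16.1 in DMSO libraries. Without the third DMSO library the difference in the Pik3cd share was 3.92 points. With coding length in place of exon length the Pik3cd share was 92.6 ± 0.355% in C89 and 86.3 ± 2.52% in DMSO libraries.

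**Figure D2:**
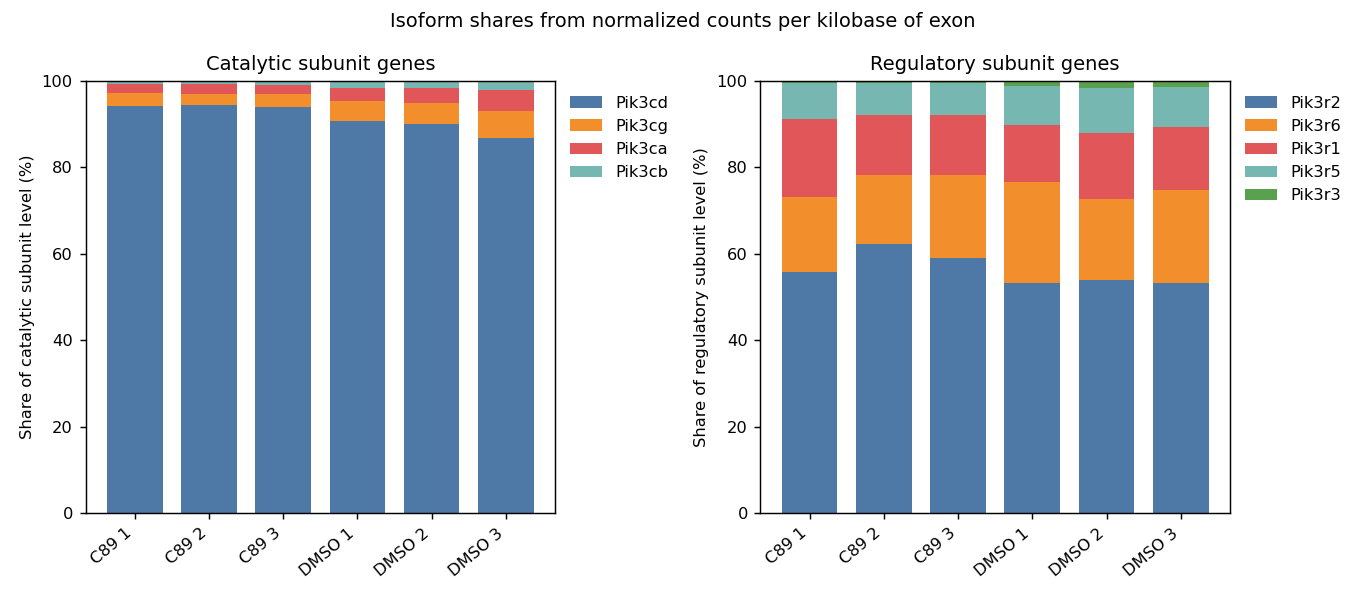
Share (y axis, percent) of each gene in the summed level of the 4 catalytic genes (left) and the 5 regulatory genes (right), from normalized counts per kilobase of exon, in each C89 and DMSO library. Pik3cd takes 94.0 to 94.5% of the catalytic level in C89 libraries and 86.8 to 90.7% in DMSO libraries, and Pik3r2 is the largest regulatory part in each library.

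Of the class IA regulatory genes, Pik3r3 fell and the other two did not pass. Pik3r3 (chr4:116221618-116303056) encodes the short regulatory subunit p55 gamma and was the least expressed member. It had 24.8, 20.3 and 24.2 normalized counts in C89 libraries, against 61.3, 79.7 and 73.2 in DMSO libraries. The groups lay far apart relative to their spread, at 23.1 ± 2.43 in C89 and 71.4 ± 9.30 in DMSO libraries (SD, n = 3 each), a ratio of 0.324 and a log2 fold change of -1.58 (SE 0.24, limma adjusted p = 6.58e-04). These values rest on 28, 10 and 19 reads in C89 libraries and on 92, 100 and 92 reads in DMSO libraries. The fall stayed called under all 15 other settings, at log2 fold changes of -1.73 to -1.44. A further annotated gene, Gm49337, shares 24.3% of the exon bases of Pik3r3 on the same strand and had no normalized count in any library.

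Pik3r2 (chr8:70768176-70776713), which encodes p85 beta, was the most expressed regulatory gene. It had 1925, 2160 and 2050 normalized counts in C89 libraries, against 2146, 2171 and 2287 in DMSO libraries. The second C89 library lay within the DMSO range, and the log2 fold change of -0.11 (SE 0.08) did not pass (limma adjusted p = 0.38). Pik3r1 (chr13:101680563-101768217), which encodes p85 alpha and its shorter forms p55 alpha and p50 alpha, had 1506, 1150 and 1173 normalized counts in C89 libraries, against 1288, 1494 and 1509 in DMSO libraries. Its groups overlapped through the first C89 library, and its log2 fold change was -0.17 (SE 0.11, adjusted p = 0.302).

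Both class IB regulatory genes fell. They are neighbours on chromosome 11, with Pik3r5 at chr11:68432121-68497849 and Pik3r6 at chr11:68503019-68552698, both on the plus strand, and encode p101 and p84, which tether the Pik3cg product to G protein beta gamma subunits. Pik3r5 had 382, 343 and 334 normalized counts in C89 libraries, against 480, 562 and 530 in DMSO libraries. The groups did not overlap, with means of 353 ± 25.4 in C89 and 524 ± 41.2 in DMSO libraries and a log2 fold change of -0.57 (SE 0.11, limma adjusted p = 0.00268). Pik3r6 had 517, 484 and 584 normalized counts in C89 libraries, against 814, 655 and 808 in DMSO libraries. Here too every C89 value was below every DMSO value, and the log2 fold change was -0.52 (SE 0.12, adjusted p = 0.00577). Both calls held under all 15 other settings, with the highest adjusted p at 0.0388 for Pik3r5 and 0.0496 for Pik3r6.

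On the scale per kilobase of exon, Pik3r2 led the regulatory genes with 490 ± 28.2 in C89 and 527 ± 18.03 in DMSO libraries. Pik3r6 was at 146 ± 14.03 in C89 and 209.6 ± 24.9 in DMSO libraries, and Pik3r1 at 127 ± 19.7 in C89 and 142 ± 12.3 in DMSO libraries. Pik3r6 and Pik3r1 did not differ beyond their spread in C89 libraries, whereas in DMSO libraries each Pik3r6 value was above each Pik3r1 value. Coding length reversed that order: mean shares of the regulatory sum in DMSO libraries were then 15.3% for Pik3r6 and 28.5% for Pik3r1. Pik3r5 followed at 63.6 ± 4.57 in C89 and 94.4 ± 7.41 in DMSO libraries, and Pik3r3 was last at 4.36 ± 0.459 in C89 and 13.5 ± 1.75 in DMSO libraries.

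The share of Pik3r2 among the 5 regulatory genes was 55.8, 62.3 and 58.9% in C89 libraries, against 53.3, 53.9 and 53.2% in DMSO libraries. Each C89 library was above each DMSO library although the Pik3r2 level itself did not pass the test. Pik3r5 took 7.66 ± 0.582% in C89 and 9.58 ± 0.802% in DMSO libraries, and Pik3r3 took 0.525 ± 0.0559% in C89 and 1.37 ± 0.180% in DMSO libraries. These 3 shares did not overlap between the groups (exact permutation p = 0.1 each, adjusted p = 0.122). They too are parts of the same sum, so their differences are not separate results. Pik3r6 took 17.6 ± 1.65% in C89 and 21.2 ± 2.32% in DMSO libraries (exact permutation p = 0.2, adjusted p = 0.22). Pik3r1 took 15.3 ± 2.44% in C89 and 14.4 ± 1.06% in DMSO libraries (exact permutation p = 0.8), and its difference of 0.883 points was -0.52 points without the first C89 library. Divided by coding length instead, the Pik3r1 share was 30.1 ± 3.88% in C89 and 28.5 ± 1.63% in DMSO libraries, since 2294 of its 10079 exon bases are coding.

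Because the subunits work as dimers, the summed catalytic level was set against the summed regulatory level of the same class. The class IA ratio of Pik3ca, Pik3cb and Pik3cd to Pik3r1, Pik3r2 and Pik3r3 was 8.72, 7.07 and 7.36 in C89 libraries, against 4.79, 4.40 and 3.38 in DMSO libraries. No DMSO library reached the lowest C89 library, and the difference was 0.89 on the log2 scale (exact permutation p = 0.1, adjusted p = 0.122). The regulatory sum was 621 ± 12.7 per kilobase in C89 and 683 ± 29.0 in DMSO libraries, so the higher ratio lay mainly in Pik3cd. The class IB ratio of Pik3cg to Pik3r5 and Pik3r6 was 0.835, 0.607 and 0.610 in C89 libraries, against 0.501, 0.553 and 0.501 in DMSO libraries. The groups again did not overlap, with a log2 difference of 0.39 (exact permutation p = 0.1, adjusted p = 0.122), which was 0.23 without the first C89 library. The class IB regulatory sum was 209 ± 13.1 per kilobase in C89 and 304 ± 19.4 in DMSO libraries. The side of 1 on which the class IB ratio lay depended on the length used. Its mean on the log2 scale was -0.56 in C89 and -0.95 in DMSO libraries by exon length. Without division by length it was 0.44 in C89 and 0.046 in DMSO libraries. Ratios of transcript levels are not ratios of protein.

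Pik3ap1 (chr19:41272377-41385102) encodes BCAP, a cytosolic adaptor of blood cells whose phosphorylated tyrosines bind class IA regulatory subunits. Its normalized counts were 3284, 1900 and 1908 in C89 libraries, against 1244, 1279 and 781 in DMSO libraries. The first C89 library stood well above the other two and the third DMSO library well below its group, yet the groups did not overlap. The means were 2364 ± 797 in C89 and 1101 ± 278 in DMSO libraries (SD, n = 3 each), a ratio of 2.15 and a log2 fold change of 1.09 (SE 0.21, limma adjusted p = 0.00271). Dropping the first C89 library gave 0.82 and dropping the third DMSO library 0.86, both still called. The call was lost when the second DMSO library was dropped (log2 fold change 1.21, adjusted p = 0.06).

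**Figure D3:**
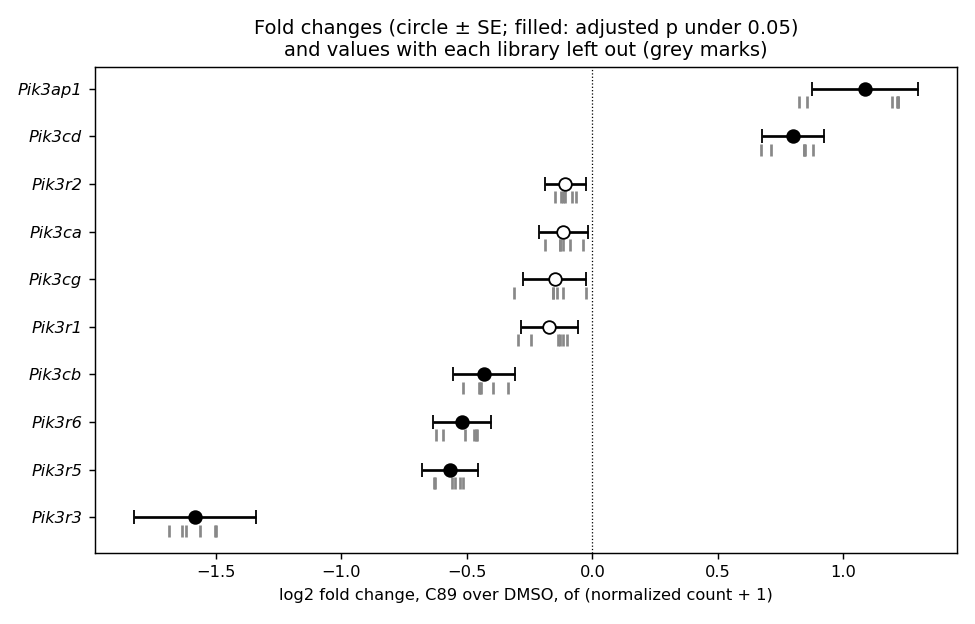
Log2 fold change (x axis, C89 over DMSO, of the normalized count plus 1) of the 10 genes with its SE, filled where the adjusted p was under 0.05, and below each the 6 values with 1 library left out (grey marks). Pik3ap1 at 1.09 and Pik3cd at 0.80 lie right of 0, Pik3r3 at -1.58 lies farthest left, and the grey marks of each gene stay on the side of its circle.

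In the authors' deposited table the same 6 members have an adjusted p under 0.05, from 1.46e-09 for Pik3cd to 0.0333 for Pik3cb. The log2 fold changes of the authors' deposited table are smaller in size for all 10 members, at -1.21 for Pik3r3, 0.85 for Pik3ap1 and 0.77 for Pik3cd. With libraries scaled by total reads in place of the authors' size factors, the median log2 fold change of all tested genes was -0.17 in place of -0.03, and 29.6% of them passed, 7.99% as higher and 21.6% as lower. On that scale 2 members were higher and 5 lower: Pik3r2 also passed as lower (log2 fold change -0.26, limma adjusted p = 0.0369), Pik3cd was at 0.65 and Pik3ap1 at 0.94, and no member changed direction.

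Genes with the pattern most like that of a called member were found as those with the smallest root mean square difference between log2 profiles over the 6 libraries, each centred on its own mean, among 9606 other genes. For Pik3cd they were Csf2rb2, a receptor subunit gene of the IL-3 family (difference 0.0507 log2 units), the septin gene Sept9 (0.0565) and the transcription factor gene Batf (0.058). Csf2rb2 had 16391, 13390 and 13414 normalized counts in C89 libraries, against 9464, 8938 and 7601 in DMSO libraries, so that the first library of each group was again the highest. For Pik3ap1 they were Lrp5 (0.0753), B4galt5 (0.108) and Wdr78 (0.11), each also highest in the first C89 library. The nearest to Pik3cb were Nceh1, Mrm2 and Hps1 (0.0378 to 0.0489), to Pik3r5 Cntnap1, Cog1 and Dis3l2 (0.0318 to 0.0408), and to Pik3r6 Med16, Rpusd1 and Dnajc30 (0.0285 to 0.0541). Pik3r3 averaged under 50 normalized counts and was not searched.

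The genes that act before and after class I PI3K moved in both directions, 14 higher and 16 lower of 102 tested in 6 lists, with median log2 fold changes per list of -0.53 to 0.13. Of all tested genes 26.1% were called, 12.5% higher and 13.6% lower, so these counts lie near the share over the whole table. With libraries scaled by total reads the split was 8 higher and 28 lower, where 7.99% of all tested genes were higher and 21.6% lower. Of the 31 receptors and adaptors that recruit PI3K, 29 were tested, 3 rose and 6 fell, with a median of -0.53. That median depended on genes with low counts. Among the 20 genes averaging at least 10 it was -0.18, with 3 higher and 6 lower as before. Without the second DMSO library the median of the list was -0.19. When libraries were scaled by total reads, 2 were higher and 9 lower. The T cell and mast cell adaptor gene Lat rose to 5294 ± 49.6 normalized counts in C89, against 3297 ± 375 in DMSO libraries (log2 fold change 0.69, limma adjusted p = 3.18e-04). The SRC family kinase gene Lyn fell to 999 ± 38.5 in C89, against 1446 ± 138 in DMSO libraries (log2 fold change -0.53, adjusted p = 0.0017). Pdgfra, a growth factor receptor gene that is also in the stromal marker list, was at 18.6, 28.5 and 20.4 in C89 libraries, against 88.7, 165 and 56.5 in DMSO libraries (log2 fold change -2.04, adjusted p = 0.0012). Its highest library was the second DMSO library, as for the stromal list as a whole, and the part of stromal cells in it was not tested. Counts in this list and over all tested genes moved with single libraries. In this list 1 higher and 2 lower genes were left after dropping the third C89 library and 2 and 2 after dropping the second DMSO library. Over all tested genes 2612 and 2303 were called in these fits, against 4946 with all libraries. Dropping the first or second C89 library left 2 higher genes of the list beside 6 or 5 lower ones. Dropping the first or the third DMSO library left 2 beside 7 or 9.

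Of 19 small GTPase and G protein beta and gamma genes, whose products activate catalytic subunits directly, 3 rose and none fell (median 0.01). When libraries were scaled by total reads, 2 were higher and 3 lower. Of all tested genes 12.5% were higher and 13.6% lower, and with that scaling 7.99% and 21.6%. Gng5, a G protein gamma subunit gene, rose to 2195 ± 150 normalized counts in C89, against 1388 ± 103 in DMSO libraries (log2 fold change 0.66, limma adjusted p = 3.68e-04). The small GTPase gene Cdc42 was at a log2 fold change of 0.31 (adjusted p = 0.0125) and missed the threshold when C89 library 2 or 3 was dropped (0.0714 and 0.063), with scaling by total reads (0.139) and with C89 libraries 2 and 3 summed (0.0641). Gnb3 was at 5.76 ± 2.07 in C89 and 0.753 ± 0.0748 in DMSO libraries, with 1 read behind each DMSO value (adjusted p = 0.0345), and its call too was lost after dropping C89 library 2 or 3 or DMSO library 1 or 2 (0.0592 to 0.103), in DESeq2 (0.116) and with C89 libraries 2 and 3 summed (0.0855). Higher genes of this list numbered 1 in the fits lacking C89 library 2 or 3 and 2 in those lacking DMSO library 1 or 2.

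Of 11 phosphoinositide phosphatase and PI3K inhibitor genes, 4 fell and none rose (median -0.11), where 13.6% of all tested genes were lower and 12.5% higher. When total reads set the scale, 5 were lower, where 21.6% of all tested genes were lower. Inpp5e, a lipid phosphatase gene of the primary cilium, fell to 255 ± 18.9 normalized counts in C89, against 560.2 ± 74.0 in DMSO libraries (log2 fold change -1.13, limma adjusted p = 8.24e-05). The synaptojanin gene Synj2 had a log2 fold change of -0.55 (adjusted p = 0.00538), lost without the third C89 library (0.059) or the second DMSO library (0.0879). Pik3ip1, whose product inhibits the catalytic subunits, was at 156 ± 41.2 in C89 and 225 ± 21.8 in DMSO libraries (log2 fold change -0.56, adjusted p = 0.0461) and missed the threshold without C89 library 1 or 3 or any DMSO library (0.0588 to 0.238), in DESeq2 (0.0549), with a pseudocount of 5 (0.0545) and with no filter on low values (0.0521). Inpp5d, which encodes the blood cell phosphatase SHIP1 and was the most abundant of the list, had a log2 fold change of 0.09 (adjusted p = 0.545), and Inppl1, which encodes SHIP2, one of 0.06 (0.638). Inpp5j, Inpp5k, Synj1, Inpp4a and Inpp4b did not pass, with log2 fold changes of -0.38 for Synj1 to 1.39 for Inpp5j, although Synj1 passed as lower without the first DMSO library (adjusted p = 0.00761), with scaling by total reads (0.0135) and in DESeq2 (0.048). Lower genes of the list numbered 1 without the third C89 or the second DMSO library and 2 without the third DMSO library.

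Of 29 tested PIP3 effector genes, 6 rose and 5 fell (median 0.13), where 12.5% of all tested genes were higher and 13.6% lower. With scaling by total reads 3 were higher and 7 lower and the median was -0.016, where 7.99% of all tested genes were higher and 21.6% lower. Dock2, a RAC exchange factor gene of blood cells, rose to 8496 ± 313 normalized counts in C89, against 5173 ± 626 in DMSO libraries (log2 fold change 0.72, limma adjusted p = 2.83e-04). The TEC family kinase gene Btk rose to 3012 ± 93.9 in C89, against 2164 ± 172 in DMSO libraries (log2 fold change 0.48, adjusted p = 0.00171). Akt1, whose product is the best known PIP3 effector, rose by 0.49 on the log2 scale (adjusted p = 0.00215), and these 3 calls held without any 1 library. Dropping 1 C89 library left 3 to 4 higher and 1 to 2 lower effector genes, dropping the second DMSO library 3 and 0, and dropping the third DMSO library 3 and 3. Calls over all tested genes were 2612 to 4045 without 1 C89 library. They were 2303 without the second and 3630 without the third DMSO library, against 4946 with all libraries.

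Of the class II and class III PI3K genes, which make other lipids for membrane traffic, Pik3r4, the regulatory subunit gene of class III, was lower at 425 ± 24.3 normalized counts in C89, against 619 ± 103 in DMSO libraries (log2 fold change -0.53, limma adjusted p = 0.00754; 0.069 without the second DMSO library). The class III catalytic gene Pik3c3 had a log2 fold change of 0.02, Pik3c2a one of -0.38 and Pik3c2b one of -0.46, and none of these passed with the authors' scaling and all libraries. Pik3c2a passed as lower without the first C89 library (adjusted p = 0.00878), and Pik3c2b with scaling by total reads (log2 fold change -0.61, adjusted p = 0.0323). Pik3c2g, with 1 read in all libraries together, was not tested. Of 10 kinase genes that supply PIP2 and its precursors, Pi4k2a rose to 1522 ± 120 normalized counts in C89, against 1073 ± 80.1 in DMSO libraries (log2 fold change 0.50, adjusted p = 0.00235). Pip5k1a had a log2 fold change of 0.36 (adjusted p = 0.0106), lost with scaling by total reads (log2 fold change 0.21, adjusted p = 0.104), without the third C89 library (0.0549) or without the second DMSO library (0.0615). The other 8, Pip5k1b, Pip5k1c, Pip4k2a, Pip4k2b, Pip4k2c, Pi4ka, Pi4kb and Pi4k2b, had log2 fold changes of -0.32 to 0.45 and did not pass. Pi4kb passed as lower without the first C89 library (adjusted p = 0.0406), with scaling by total reads (0.00789), in edgeR (0.0454) and among genes averaging at least 10 (0.0425). With scaling by total reads Pip5k1c passed as lower too (log2 fold change -0.28, adjusted p = 0.0176), and the list had 1 higher and 2 lower genes.

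**Figure D4:**
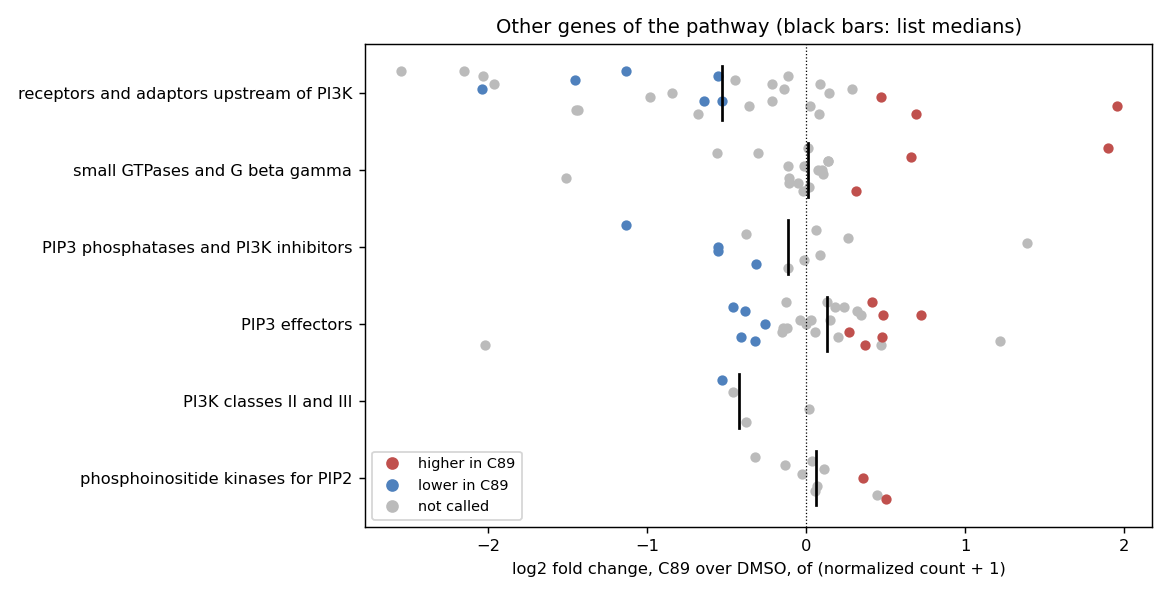
Log2 fold change (x axis, C89 over DMSO, of the normalized count plus 1) of each tested gene of 6 lists of PI3K pathway genes, coloured by whether it passed an adjusted p under 0.05 as higher or lower in C89, with black bars at the list medians. Genes called in both directions occur among receptors and adaptors and among PIP3 effectors, and the 4 called genes among phosphatases and inhibitors are all lower.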

How the data were processed

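RNA-seq was made from 3 C89 and 3 DMSO samples. Reads were aligned with HISAT2 and DESeq2 was run, per the submitters' processing notes, which give no versions; the genome build, the annotation and the read counter were not given in the sources used here. The deposited signal per library is read counts divided by 1 size factor: multiplying by it gave whole reads, to within 0.01 read, for 119020 of 119020 nonzero values (100%). The authors' mean, log2 fold change and adjusted p-value are further columns per the file headers. Of 54232 genes, 1 with text in a cell was left out, and 6 unnamed columns holding a few values were not used. Members were matched by deposited symbol and other genes by Ensembl identifier (54079 matched).

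R 4.3.3 and limma 3.58.1, with trended variance, fitted log2(value + 1) for the 18954 genes averaging 1 or more, with group as the only term; folds of low genes are understated. edgeR 4.0.16 and DESeq2 1.42.0 on recovered reads were alternatives and called 4928 and 4480 genes, against 4946. Shares used lengths from GENCODE M21 and exact permutation tests (SciPy 1.17.1). On data simulated for C89 against DMSO over 19020 genes, limma recovered 50.7% of 1.5-fold, 97% of 2-fold and 100% of 4-fold changes, with 4 false calls among 169, at 1 dispersion (0.014) and means of at least 50 reads.

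Named genes were the 10 members, the 3 lowest p-values of each pathway list, all genes of lists of up to 11 except 1 that is counted but not reported here, and the 3 nearest patterns of Pik3cd and of called members with a mean of at least 50. Members and lists were chosen with earlier results of these data known, and markers likewise. Figures were drawn with matplotlib 3.10.9.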

Additional observations from a re-analysis of the deposited data

How the results depend on the processing

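Pik3cd, Pik3r3, Pik3r5 and Pik3r6 kept their call under all 15 alternatives, Pik3ap1 under 14 and Pik3cb under 10. With scaling by total reads, 1514 genes were higher and 4096 lower in place of 2365 and 2581, and 8 and 28 genes of the 6 pathway lists in place of 14 and 16. With C89 libraries 2 and 3 summed, 1548 genes were higher, and 9 higher and 10 lower genes of the pathway lists. Over the fits that left out 1 library each, higher genes numbered 1151 to 2347 and lower genes 1152 to 2364, with higher members 1 to 2 and lower members 3 to 5, and the pathway lists had 6 to 11 higher and 3 to 17 lower genes. The Pik3r1 share difference was -0.52 to 1.65 points over these fits, negative without the first C89 library.

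Directions also reversed for genes that did not pass. With scaling by total reads the log2 fold changes were -0.061 for Inpp5d, -0.089 for Inppl1, -0.13 for Pik3c3, -0.092 for Pip4k2b, -0.11 for Pip4k2c, -0.079 for Pi4ka and -0.038 for Pi4k2b, and with 2 C89 libraries summed -0.024 for Pik3c3. Over the fits that left out 1 library each they were -0.0033 to 0.14 for Inpp5d, -0.13 to 0.061 for Inpp5k, -0.30 to 0.0038 for Inpp4a, -0.076 to 0.080 for Pik3c3, -0.062 to 0.019 for Pip4k2a and -0.036 to 0.15 for Pi4ka. Scaling by total reads lowered the log2 fold changes of abundant genes by nearly the same amount. The median over all tested genes then went from -0.033 to -0.17. The cause of the other reversals was not tested.

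Same-numbered libraries did not deviate together (correlations of deviations from the group means -0.13, -0.10 and -0.09). With 3 libraries per group such correlations cannot settle whether the numbers pair them, and the labels do not say. With the replicate number as a block, 4092 genes were called in place of 4946, with 2 higher and 4 lower members, and the pathway lists had 11 higher and 11 lower genes. Cdc42 (limma adjusted p = 0.0548) and Gnb3 (0.0665) were then not called. For the shares and ratios the mean paired difference equals the difference of group means by arithmetic, and 3 pairs allow no exact sign-flip p under 0.25, so the block tells nothing of their stability. Depth limits Pik3r3 most, with 10 reads in the second C89 library.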
